A study of Mus musculus with 12 samples.

Results

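The expression data of primary mouse oligodendrocyte precursor cells (OPCs) treated with any of 3 kinds of microglia-derived extracellular vesicles (EVs) were pooled on one side and compared with OPCs given medium alone. The 9 EV arrays (3 for each kind, i-EVs, IL4-EVs or MSC-EVs, all kinds weighted equally) stood against 3 CTRL arrays. Described here are the transcript clusters, the array's units of about 1 gene each, in which all 9 EV arrays lay on one side of all 3 CTRL arrays. This held for 5664 of the 65535 clusters (8.64%). All groups consisted of C57Bl/6 OPCs sorted by MACS with anti-CD140a from brains of pups at postnatal day 2, plated at 300000 cells per well, expanded for 48 h with PDGF-AA and FGF2 and then moved to differentiation medium with T3. About 4 h after that switch the cells received EVs from microglia stimulated with inflammatory cytokines (i-EVs), with IL4 (IL4-EVs) or with the same cytokines in the presence of mesenchymal stem cells (MSC-EVs), at 2 donor microglia per OPC, or medium without EVs (CTRL), and they were lysed at 24 h of differentiation. No EVs of unstimulated microglia, EVs of other cells or mock preparations were analysed here. What any EV preparation, microglial EVs in general and the stimulation of the donor cells each bring therefore cannot be told apart. The methods call the samples of a group independent replicates without saying whether litters or cultures were separate, so p-values cover the variation among these 12 samples alone, some of which may be technical.

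Extracellular vesicles are membrane-bound particles that carry proteins, lipids and nucleic acids from one cell to another. OPCs leave the cell cycle, lose surface proteoglycans and then build myelin when they differentiate, a step that needs large amounts of lipid and energy. Differentiating cells of this lineage pass through a committed stage marked by Gpr17 before they express myelin genes such as Mbp.

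Levels are RMA values in log2 units, which are relative and do not compare one gene with another. The oligodendrocyte lineage of the cells was as labelled. The lineage factor Olig2 lay at 19.06 to 19.26 log2 units with EVs and 19.00 to 19.08 in CTRL, and Sox10 at 13.95 to 15.02 and 14.62 to 14.72. These factors do not tell OPCs from later stages, and no value of Pdgfra, the gene of the sorting marker CD140a, is given here. None of 18 microglia markers reached a mean of 6 log2 units in any group, the same held for 10 fibroblast and 10 endothelial markers, and 0 members of these 3 lists passed the limma test described below (1 fibroblast marker was higher at an unadjusted p under 0.05). The summed level of the microglia markers was 7.65 to 7.81 log2 units with EVs and 7.73 to 7.78 in CTRL. Of 11 astrocyte markers, whose summed level was 12.80 to 14.05 with EVs and 13.02 to 13.11 in CTRL, Aldoc and Slc1a3 were lower with EVs (1 without CTRL replicate 1 or 2; 1 marker was higher without IL4-EVs replicate 1 or MSC-EVs replicate 3). Of 14 neuron markers (13.57 to 13.84 and 13.61 to 13.65), Nefl and Snap25 were lower and Dcx higher (1 was lower and 0 higher without CTRL replicate 1, and the call of Dcx was lost without any of 9 arrays). The part of these cells in the results was not tested, and in bulk samples fewer cells of a type and less RNA per cell cannot be told apart. The third MSC-EVs array (replicate 3) differed from the rest, with 16.69 log2 units of the proliferation gene Mki67, against 14.28 to 14.37 in CTRL. The array i-EVs replicate 2 stood out as well, with the highest median over all clusters (3.65 log2 units, 3.53 to 3.58 in the others). Weights that limma gives to arrays, lower for noisier ones, were 0.435 for MSC-EVs replicate 3, 0.442 for i-EVs replicate 2 and 0.907 to 1.48 for the others. Leaving out MSC-EVs replicate 3 or CTRL replicate 1 moved many counts of genes by over 1.5 times, as given beside the counts. The part of these arrays in the results was otherwise not tested.

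Of the 5664 clusters, 1977 (3.02% of all clusters) lay above CTRL in all 9 EV arrays and 3687 (5.63%) below. In a linear model over all 12 arrays (limma with 1 mean per group, p-values adjusted over all clusters by Benjamini-Hochberg), 2306 clusters (3.52%) were higher and 4121 (6.29%) lower with any EVs at adjusted p under 0.05, 9.81% in all. DEGs, with a fold of at least 1.5 besides, numbered 720 higher (1.1%) and 927 lower (1.41%), or 2.51% of all clusters. Of the 5664 clusters set apart, 4522 passed the adjusted threshold and 1246 (1.9% of all clusters) were DEGs (490 higher, 0.748%, and 756 lower, 1.15%). The remaining 401 of the 1647 DEGs overlapped between the groups. Without CTRL replicate 1 there were 281 higher and 559 lower DEGs, and without MSC-EVs replicate 3 710 and 1073. Separation and test rest on the same values, so one is no support for the other. For a single gene, the smallest p that an exact permutation test of 9 arrays against 3 can give is 0.00909, two-sided.

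The balance of higher and lower depended on how the arrays were scaled to each other. With the deposited values 43.7% of DEGs and 34.9% of the clusters set apart were higher. After another quantile normalization these shares were 63.1% and 43%, and after cyclic loess 69.3% and 52.8%. The median difference over 9406 bright genes (mean of at least 6 log2 units) was -0.12 with the deposited values, -0.06 after quantile normalization and -0.03 after cyclic loess, while over all clusters it stayed within 0.01 of 0. Directions are therefore given relative to the deposited scaling, and for gene lists the median is set against -0.12.

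**Figure D1:**
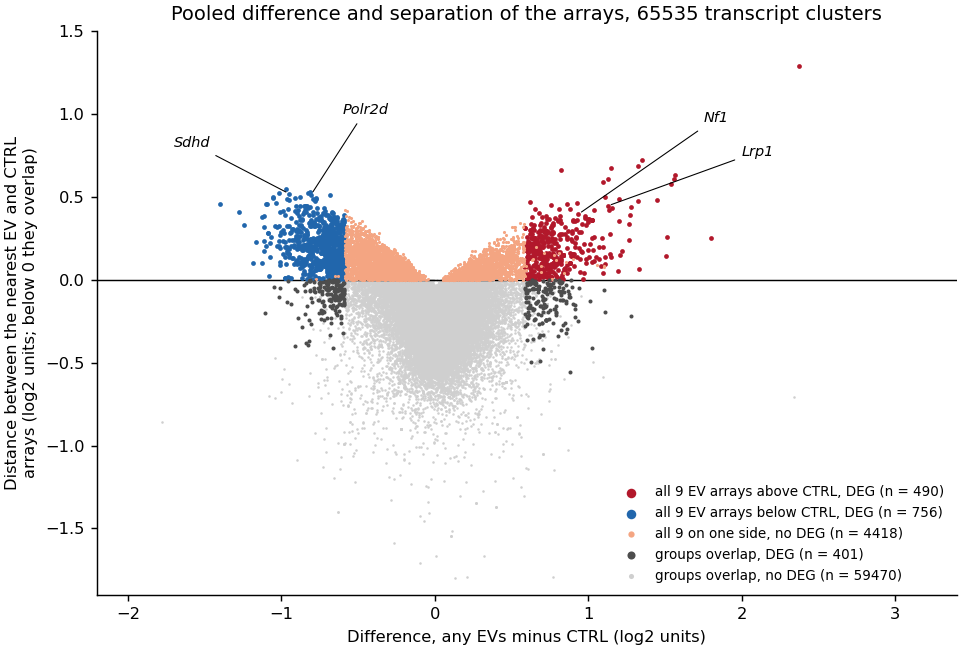
Difference of any EVs minus CTRL (x axis, log2 units) against the distance between the nearest EV and CTRL arrays (y axis, log2 units, below 0 where the groups overlap) for 65535 clusters, of which 18 lie outside the plotted range. The 490 higher and 756 lower DEGs set apart fill the upper corners, and Sdhd and Polr2d on the lower side have wider distances than Lrp1 or Nf1 on the higher side.

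The separation was narrow for most clusters. The median distance between the nearest EV and CTRL arrays was 0.06 log2 units for the higher and 0.09 for the lower clusters, and 0.16 and 0.20 for the DEGs among them. Just inside the rule, the lowest EV array had 8.003 log2 units of the kinase-like gene Peak1, against a highest CTRL array of 7.995, and the highest EV array had 8.52 of the replication gene Gins4, against a lowest CTRL array of 8.525. Just outside it, EV arrays had up to 14.35 of Fau and up to 9.835 of the Mediator subunit Med30, against CTRL arrays from 14.35 and 9.83. A minimum distance of 0.1 log2 units left 730 higher and 1692 lower clusters.

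Among named genes (1 symbol, bright, DEG and set apart: 65 higher and 156 lower), the largest increases of protein-coding genes were in Fat1 and Lrp1, which encode very large proteins. Lrp1, the endocytic LDL receptor-related protein, had a lowest, median and highest EV level of 11.17, 11.64 and 12.11 log2 units, against 10.21, 10.41 and 10.72 in the CTRL arrays. It was 2.18-fold higher with any EVs (log2 difference 1.13, SE 0.10, limma adjusted p = 0.000354). Fat1, a giant atypical cadherin, had 9.24, 9.78 and 10.63 log2 units with EVs (lowest, median, highest), against 8.31, 8.66 and 8.81 in CTRL, and was 2.20-fold higher (log2 difference 1.14, SE 0.14, adjusted p = 0.00076). In both genes the 3 i-EVs arrays were the EV arrays closest to CTRL and the MSC-EVs arrays the farthest. With i-EVs alone against CTRL, Lrp1 passed (limma adjusted p = 0.0380) and Fat1 did not (0.0890).

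Regulators of signalling and transcription and a cytoskeletal linker were higher as well. Nf1, the Ras GTPase-activating protein neurofibromin, had 10.83, 11.23 and 11.69 log2 units with EVs, against 10.07, 10.32 and 10.43 in CTRL (log2 difference 0.94, SE 0.09, adjusted p = 0.000361). Crebbp, a histone acetyltransferase, had 11.37, 11.81 and 12.19 with EVs and 10.65, 10.93 and 11.01 in CTRL (log2 difference 0.90, SE 0.08). Dst, the cytoskeletal linker dystonin, had 8.62, 9.28 and 9.57 with EVs and 8.03, 8.20 and 8.39 in CTRL (log2 difference 0.90). In all 3 genes CTRL replicate 1 was the lowest array, the i-EVs arrays were the lowest EV arrays, and the groups did not overlap. With i-EVs alone, Nf1 and Crebbp passed (limma adjusted p = 0.0390 each) and Dst did not (0.0677).

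Dync1h1, the heavy chain of cytoplasmic dynein, was 1.94-fold higher, with 11.02 to 11.99 log2 units in EV arrays and 10.23 to 10.73 in CTRL. Xist, the long RNA of X inactivation, had 12.67 to 13.54 with EVs, against 12.05 to 12.30 in CTRL (log2 difference 0.98, SE 0.09). The Y-linked genes Kdm5d, Uty and Eif2s3y had log2 differences of -0.08, -0.11 and -0.17 that did not pass the test. Phxr4 (log2 difference 0.96) lay only 0.0063 log2 units apart and lost its call in 6 of 24 alternative settings. Small p-values on the higher side also belonged to Akap9, a scaffold of protein kinase A at the centrosome (log2 difference 0.76), and Glg1, a Golgi glycoprotein (0.63). With i-EVs alone, Xist and Glg1 passed (limma adjusted p = 0.0361 and 0.0365), whereas Dync1h1 (0.0637), Akap9 (0.0501) and Phxr4 (0.713) did not.

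On the lower side the leading genes encode mitochondrial, histone and autophagy proteins. Sdhd, a membrane anchor of respiratory complex II, had a lowest, median and highest EV level of 10.52, 10.75 and 11.24 log2 units, against 11.76, 11.77 and 11.82 in CTRL. It fell to a 1.93-fold lower level with any EVs (log2 difference -0.95, SE 0.07, adjusted p = 0.000354), and even the nearest EV array, i-EVs replicate 1, lay 0.52 log2 units below CTRL. Hax1, a mitochondrial anti-apoptotic protein, had 8.98, 9.28 and 9.65 with EVs, against 10.14, 10.19 and 10.21 in CTRL (log2 difference -0.91, SE 0.07, adjusted p = 0.000354). In both genes the CTRL arrays lay closer together than the EV arrays, and i-EVs replicate 1 was the EV array nearest to them.

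Mrpl50, a mitochondrial ribosomal protein, had 10.47, 10.66 and 11.02 log2 units with EVs, against 11.52, 11.55 and 11.64 in CTRL (log2 difference -0.88, SE 0.09). Echs1, an enzyme of mitochondrial fatty acid oxidation, had 8.26, 8.49 and 8.90 with EVs and 9.35, 9.46 and 9.52 in CTRL (-0.88, SE 0.07). Gabarapl1, an autophagosome protein, had 9.01, 9.34 and 9.90 with EVs, against 10.21, 10.24 and 10.25 in CTRL (-0.90, SE 0.11). Nit2, an omega-amidase, was lower by a similar amount (-0.87). The histone genes H2ac21 (-1.06) and H2ac15 (-1.01) had the largest decreases by size. Yet H2ac15 lay only 0.09 log2 units apart and its call was lost in 3 alternative settings. With i-EVs alone, Mrpl50 and Echs1 passed (limma adjusted p = 0.0361 and 0.0340). Gabarapl1 (0.0506), H2ac21 (0.0532), Nit2 (0.0956) and H2ac15 (0.175) did not.

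Polr2d, a small subunit of RNA polymerase II, had 10.70, 10.84 and 11.11 log2 units with EVs, against 11.62, 11.66 and 11.78 in CTRL (log2 difference -0.81, SE 0.06, adjusted p = 0.000354). Polr2a, the largest subunit of the same enzyme, went the other way, with 9.47, 9.63 and 10.60 with EVs, against 8.87 to 9.10 in CTRL (0.78, SE 0.14, adjusted p = 0.00485). It was looked up after its values had been seen.

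**Figure D2:**
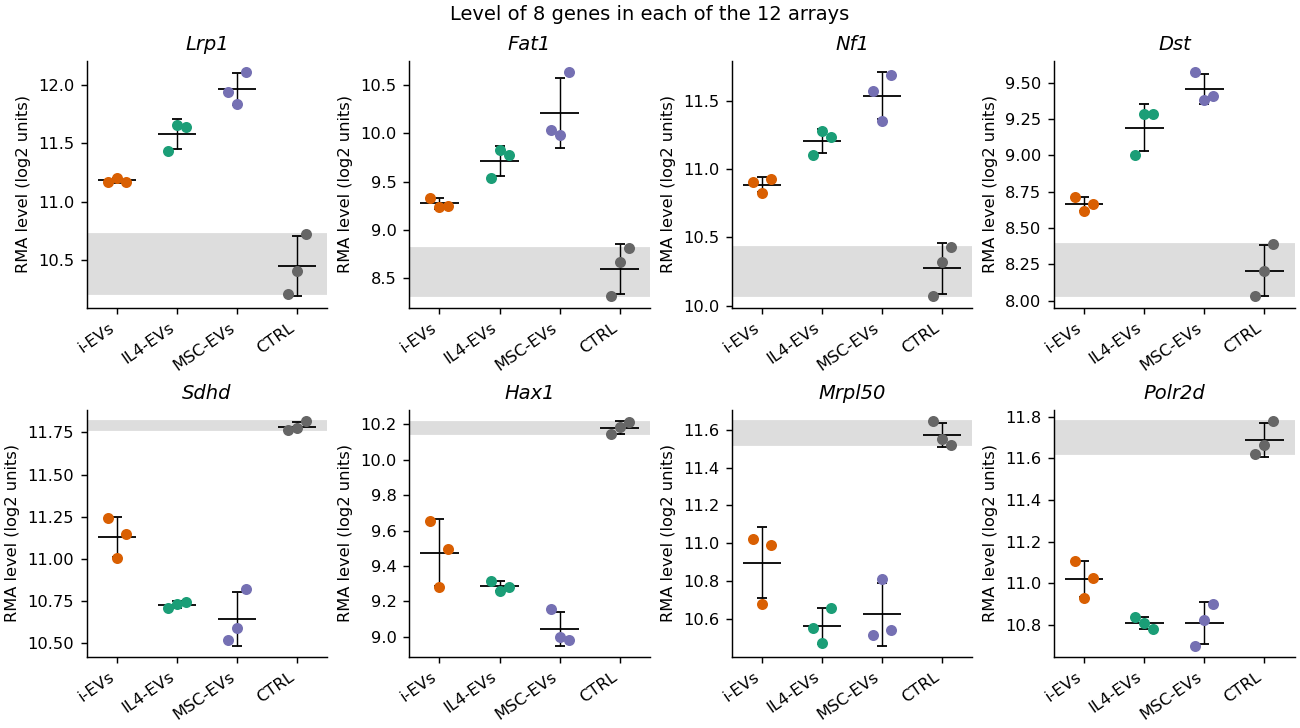
RMA level (y axis, log2 units) of 4 higher and 4 lower genes in each of the 12 arrays, by group (x axis), with points for arrays, lines for means, bars for the SD of 3 arrays and a grey band for the range of CTRL. No EV array enters the CTRL band, and the i-EVs arrays lie nearest to it in Lrp1, Fat1, Nf1, Dst, Sdhd and Polr2d.

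The promoter sequences of a pair of leading genes on each side show the G and C content on either side. Each window runs from 250 bases before to 50 after a start listed for the gene (RefSeq, GRCm38.p6). Capitals mark any match, on either strand, to 6 motifs searched. The core of the ETS factors' motif was read as CCGGAAG. The core of the YY1 motif was read as AAGATGGC. The CREB motif was read as TGACGTCA, the NRF1 motif as the palindrome in capitals in the Lrp1 sequence. The TATA box was read as TATAAA, and the sixth motif was the CCAAT box. Sdhd (chr9:50603800-50604099, minus strand) is 62% G and C and holds an ETS core 46 bases before the start. Mrpl50 (chr4:49521034-49521333, minus strand) is 58% G and C with CCAAT boxes 17 and 233 bases before the start. Lrp1 (chr10:127621099-127621398, minus strand) is 67.7% G and C with an NRF1 motif 168 bases before the start. Nf1 (chr11:79339642-79339941, plus strand) is 75.7% G and C with an ETS core 217 bases before the start used for its window. This window lies within the annotated gene, which begins upstream of it at 79339590, so the ETS core lies after the gene's annotated start.
Sdhd: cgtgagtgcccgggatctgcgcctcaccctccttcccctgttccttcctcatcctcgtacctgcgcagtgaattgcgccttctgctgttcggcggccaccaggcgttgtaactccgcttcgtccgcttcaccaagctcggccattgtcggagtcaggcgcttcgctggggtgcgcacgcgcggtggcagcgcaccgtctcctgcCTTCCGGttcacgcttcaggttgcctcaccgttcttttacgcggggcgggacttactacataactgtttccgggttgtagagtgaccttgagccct
Mrpl50: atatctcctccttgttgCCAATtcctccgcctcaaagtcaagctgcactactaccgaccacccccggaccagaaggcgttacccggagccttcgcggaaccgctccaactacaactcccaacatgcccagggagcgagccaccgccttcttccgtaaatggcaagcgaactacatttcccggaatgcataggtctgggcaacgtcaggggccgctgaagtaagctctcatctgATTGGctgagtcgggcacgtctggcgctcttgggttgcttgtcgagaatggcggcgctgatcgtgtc
Lrp1: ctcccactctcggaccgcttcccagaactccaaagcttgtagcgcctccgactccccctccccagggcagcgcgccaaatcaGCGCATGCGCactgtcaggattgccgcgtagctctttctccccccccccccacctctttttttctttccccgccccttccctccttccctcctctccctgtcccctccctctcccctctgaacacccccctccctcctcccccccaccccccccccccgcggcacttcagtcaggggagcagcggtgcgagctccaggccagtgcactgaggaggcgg
Nf1: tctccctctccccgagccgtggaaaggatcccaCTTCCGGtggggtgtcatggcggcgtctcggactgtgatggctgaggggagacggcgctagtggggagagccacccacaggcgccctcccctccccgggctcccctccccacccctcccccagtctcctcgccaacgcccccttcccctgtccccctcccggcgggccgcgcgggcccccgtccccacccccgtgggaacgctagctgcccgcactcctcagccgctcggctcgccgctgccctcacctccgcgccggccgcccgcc

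Over all protein-coding DEGs set apart, a promoter window was found for 133 of 165 lower and 46 of 61 higher genes (1 window a gene). The CCAAT box was held by 52.6% of the lower and 19.6% of the higher promoters, against 40.5% of 5741 bright protein-coding genes and 37.9% of 27025 promoters in all. The ETS core was held by 26.3% of the lower and 13% of the higher promoters, against 21.4% of bright genes and 9.12% of all promoters. The YY1 core was held by 9.77% and 15.2%, against 5.99% of bright genes and 2.88% of all, and the TATA box by 8.27% and 13%, against 5.89% and 14.2%. The NRF1 motif was held by 3.76% and 4.35% (2.6% of bright genes, 0.977% of all) and the CREB motif by 3.01% and 0% (3.59% and 1.88%). Over all protein-coding genes set apart, DEG or not, the shares were closer to those of bright genes, except for the ETS core in lower genes, with the CCAAT box in 43% of 1734 lower and 30.5% of 668 higher promoters, the ETS core in 27% and 13.9%, the YY1 core in 6.17% and 6.44% and the TATA box in 6.57% and 6.44%. Among the DEGs, median G and C content was 57% in lower, 65% in higher and 62% in bright genes. A match is a description of letters and not of a bound site.

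Of bright genes in general, 8.38% were higher and 29.7% lower with any EVs at adjusted p under 0.05, and 7.97% lay above and 26.3% below CTRL in all 9 EV arrays, so a list of bright genes is read against these shares. Of 32 nuclear subunits of respiratory complex I, the entry point of electrons into the chain, 26 fell, 0 rose and 6 did not pass, with a median of -0.41. Ndufa8 had 11.35, 11.56 and 11.90 log2 units with EVs (lowest, median, highest), against 12.15 to 12.20 in CTRL. For complexes II to V, 33 of 40 fell (median -0.38), among them Cox6b1 of cytochrome c oxidase, with 14.90 to 15.56 with EVs and 15.72 to 15.83 in CTRL. In these lists 19 and 27 members lay below CTRL in all 9 EV arrays and 0 above.

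Mitochondrial ribosomal proteins fell in 65 of 77 members (median -0.35), and without CTRL replicate 1 in 39. Of 23 genes of mitochondrial protein import 17 fell (median -0.37), and 11 without CTRL replicate 1. Tomm7, a small subunit of the outer membrane translocase, had 7.80 to 8.76 log2 units with EVs and 8.86 to 8.997 in CTRL. The citric acid cycle had 8 of 17 members lower (median -0.18; 4 without CTRL replicate 1 or 2 or after another quantile normalization). Fh1, fumarate hydratase, was one of them (log2 difference -0.52). Of 14 glycolysis genes 6 fell (median -0.13), and 2 without CTRL replicate 1. Ldhb, which turns lactate to pyruvate, had 10.45 to 11.07 with EVs and 11.48 to 11.66 in CTRL (-0.85, SE 0.08, adjusted p = 0.000359). The median of the glycolysis list is close to that of bright genes as a whole.

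The proteasome, which degrades ubiquitinated proteins, had 25 of 30 members lower and 0 higher (median -0.40). Psmb6, a catalytic subunit, had 9.57, 9.71 and 10.07 log2 units with EVs and 10.47 to 10.51 in CTRL (-0.71, SE 0.06), and Psma5 10.76 to 11.18 and 11.55 to 11.69 (-0.68). Of 44 genes picked by the name pattern of cytosolic ribosomal proteins 30 fell (median -0.35), and the 1 that rose, Rps6ka3, is a kinase. Of these 44 clusters, 6 lie on another chromosome than the gene, that of Rpl27 (-0.80) among them, so near-identical copies cannot be told apart. Translation factors had 15 of 26 lower, led by Eif3k (11.21 to 12.15 with EVs, 12.32 to 12.42 in CTRL), and 2 higher, Eif4g3 and Eif5b (6 after either other scaling).

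Antioxidant and glutathione genes had 17 of 29 lower and 0 higher (median -0.30), and 7 lower without CTRL replicate 1 and 10 without CTRL replicate 2 or 3. Gstp1, a glutathione transferase, had 11.53, 12.19 and 12.97 log2 units with EVs, against 13.06 to 13.12 in CTRL (-0.86, SE 0.11), and Prdx2, a peroxiredoxin, 9.59 to 9.86 and 10.16 to 10.26 (-0.51). Of 19 mitochondrial apoptosis regulators 5 fell (26.3%, against 29.7% of bright genes), and 3 without CTRL replicate 1 or 2. Only 10 of the 19 were bright, so these shares are not like for like. The 5 were Hax1, Bnip3 (-0.40), Cycs (-0.37), Htra2 (-0.34) and Mcl1 (-0.30), while the median of that list was -0.05.

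The lists of chromatin enzymes, giant receptors and giant linkers went the other way. Protein length was not measured. Of 31 chromatin remodelers and histone enzymes 27 rose and 0 fell (median 0.41), and 23 lay above CTRL in all 9 EV arrays. Besides Crebbp they included its paralog Ep300 (0.71), the chromodomain remodeler Chd7 (0.73) and Kmt2e, with 11.72, 12.13 and 12.27 log2 units with EVs and 11.29 to 11.45 in CTRL (0.68, SE 0.07). Of 28 giant adhesion and endocytic receptors 12 rose and 0 fell (median 0.25), 18 without MSC-EVs replicate 3 and 5 without CTRL replicate 1. Of 14 giant linkers and spectrins 8 rose and 0 fell (median 0.25; 4 rose without CTRL replicate 1), among them the spectrins Sptan1 (0.51) and Sptbn1 (0.52). These lists were made with earlier results in view and are no separate evidence of their direction.

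The motor and ubiquitin ligase list and the spliceosome list had members called in both directions. Of 27 motor and ubiquitin ligase genes 10 rose, among them Birc6, a giant inhibitor of apoptosis with ligase activity (9.42 to 10.23 log2 units with EVs, 8.78 to 9.04 in CTRL), and the ligases Ubr4 (0.82) and Hectd4 (0.73). The 4 that fell (14.8%, against 29.7% of bright genes) were all dynactin subunits, Dctn3 (-0.71), Dctn2, Dctn6 and Dctn5. Dynein's heavy chain Dync1h1 was higher. Without CTRL replicate 1 only 1 of this list fell, and 2 without CTRL replicate 2 or 3, without IL4-EVs replicate 2 or after cyclic loess. Of 30 spliceosome proteins 11 fell (18 without MSC-EVs replicate 3, 7 without CTRL replicate 1) and 2 rose. These shares of 36.7% and 6.67% stand against 29.7% and 8.38% of bright genes. Those that fell included Sf3b6 (-0.63) and Snrpg (-0.86, on a cluster of another chromosome than the gene). The 2 that rose (4 after either other scaling), Prpf8 and Snrnp200 (0.51), are the largest core proteins of the machine, and Prpf8 had 13.24 to 13.82 with EVs and 12.83 to 13.05 in CTRL (0.58, SE 0.07).

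Among 36 lysosomal and endocytic genes 18 fell (10 without CTRL replicate 1, 11 without CTRL replicate 2). Another 3 rose (6 without MSC-EVs replicate 3). The share that rose, 8.33%, is that of bright genes (8.38%), while 50% fell, against 29.7%. The balance depended on scaling, with 10 lower and 6 higher after another quantile normalization and 11 lower and 7 higher after cyclic loess. Npc1, the membrane protein of lysosomal cholesterol export, had 11.03 to 11.22 log2 units with EVs and 10.51 to 10.71 in CTRL (0.52, SE 0.06), whereas its small soluble partner Npc2 was lower (-0.59). The V-ATPase subunit Atp6v0a1 was higher (0.42) and Atp6v1e1 of the same pump lower (-0.64). The proteases Ctsl (10.04 to 10.43 with EVs, 10.71 to 10.76 in CTRL) and Ctsb (-0.57) were lower.

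Ras, PI3K and mTOR regulators had 6 of 26 higher and 2 lower (median 0.05). Higher were Nf1, Tsc2 (10.19 to 10.50 log2 units with EVs, 9.68 to 9.89 in CTRL), Rictor (0.51), Mtor (0.33), Pik3ca and Rptor. Ddit4, a stress-induced inhibitor of mTORC1, was lower (-0.66), as was Mlst8. Without CTRL replicate 1 3 rose and 0 fell, without CTRL replicate 2 or 3 or i-EVs replicate 2 0 fell, without MSC-EVs replicate 3 4 fell, and after cyclic loess 8 rose and 0 fell. Without i-EVs replicate 1, IL4-EVs replicate 1 or 2 or MSC-EVs replicate 1, 1 fell.

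**Figure D3:**
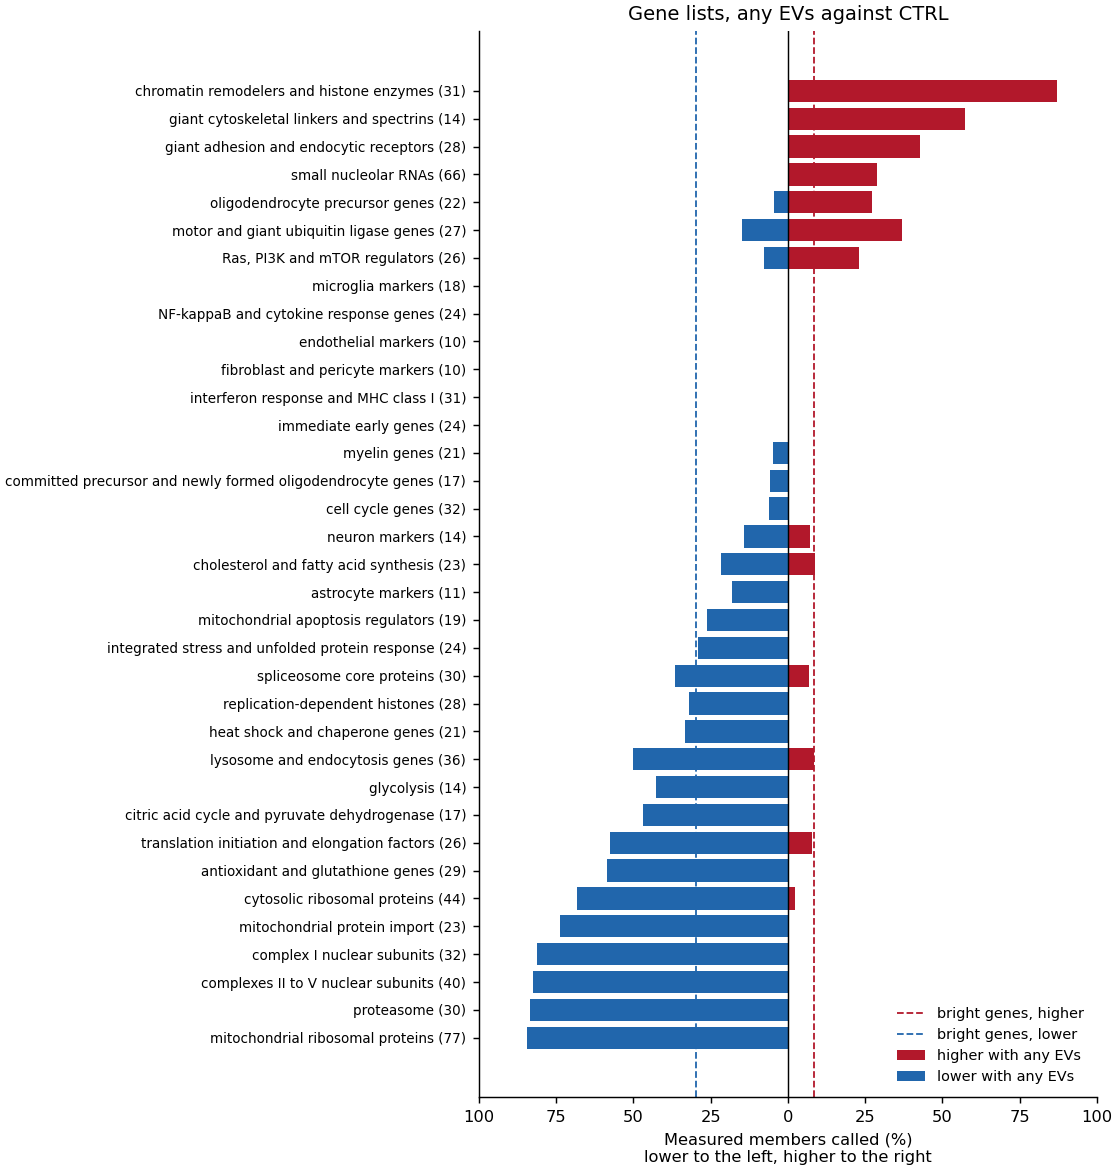
Share of measured members (x axis, percent, number measured in brackets) that passed adjusted p under 0.05, higher to the right and lower to the left, for each gene list, with dashed lines at the shares among bright genes (8.38% higher, 29.7% lower). Mitochondrial ribosomal proteins, the proteasome and respiratory complexes lie far past the lower line, chromatin enzymes far past the higher one.

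In the oligodendrocyte lineage, OPC genes were called mostly higher, while few genes of later stages passed the test. Of 22 OPC genes 6 rose and 1 fell (median 0.09, against -0.12 of bright genes). These shares of 27.3% and 4.55% stand against 8.38% and 29.7% of bright genes. After cyclic loess 10 rose and 0 fell. Without CTRL replicate 1 3 rose and 0 fell, without MSC-EVs replicate 3 10 rose and 2 fell, and without CTRL replicate 2 0 fell. Ncan, a chondroitin sulfate proteoglycan of OPC matrix, had 14.89, 15.11 and 15.30 log2 units with EVs and 14.33 to 14.57 in CTRL (0.64, SE 0.07, adjusted p = 0.000646), Pcdh15 9.11 to 9.74 and 8.73 to 8.89 (0.54), and the transcription factor Sox6 14.16 to 14.54 and 13.97 to 14.13 (0.37). Vcan (0.56) and Ptprz1 (0.26) also rose. The summed level of the OPC list was 20.07 to 20.23 log2 units with EVs and 20 to 20.07 in CTRL.

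Cspg4, which encodes the OPC proteoglycan NG2, had 9.49, 9.70 and 10.57 log2 units with EVs, against 9.19, 9.25 and 9.29 in CTRL (0.51, SE 0.14, adjusted p = 0.0455), and lost its call in 12 alternative settings. Gpr17 had 17.26, 18.04 and 18.21 with EVs and 17.85 to 18.02 in CTRL (0.01, SE 0.14, adjusted p = 0.984). Mbp, the major myelin protein gene, had 5.01, 5.65 and 5.75 with EVs and 5.61 to 5.73 in CTRL (-0.12, adjusted p = 0.704). For both genes the EV and CTRL arrays overlapped, and the lowest value was that of MSC-EVs replicate 3.

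Of 17 committed-stage genes 0 rose and Rras2 fell, a call lost without any 1 of the CTRL arrays, and without MSC-EVs replicate 3 6 rose. Of 21 myelin genes Plekhb1 alone passed (lower, -0.39) and 10 of the 21 were bright. Its call was lost without any 1 of 8 arrays, CTRL replicate 1 among them, and without MSC-EVs replicate 3 2 myelin genes rose. The cell cycle list turned on 1 array. Over all arrays 2 of 32 members fell (Ccnb2 and Nusap1, median -0.32), whereas without MSC-EVs replicate 3 28 fell and 1 rose (median -0.50), and without CTRL replicate 1 or 2 0 fell. Without CTRL replicate 3, i-EVs replicate 2 or IL4-EVs replicate 1 or 2, 1 fell. The summed level of the list was 16.33 to 16.47 log2 units with i-EVs and IL4-EVs, 16.35 to 18.08 with MSC-EVs and 16.67 to 16.83 in CTRL. Replication-dependent histone genes also turned on single arrays, with 9 of 28 lower over all arrays (median -0.53), 23 without MSC-EVs replicate 3, 2 without CTRL replicate 1 or 2, 3 without CTRL replicate 3 and 5 without any 1 of the IL4-EVs arrays.

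Lipid synthesis genes were called in both directions in the limma test, at shares near or below those of bright genes. These were 8.70% higher and 21.7% lower, against 8.38% and 29.7%. By separation the list leaned lower, with 9 of 23 members below CTRL in all 9 EV arrays and 1 above. Of bright genes 26.3% lay below and 7.97% above. Fasn, fatty acid synthase, had 11.94, 12.34 and 12.52 log2 units with EVs and 11.42 to 11.76 in CTRL (0.64, SE 0.08, adjusted p = 0.000824), and Acaca, which feeds it, was higher too (0.35). The cholesterol enzymes Idi1 (11.55, 11.98 and 12.13 with EVs, 12.53 to 12.67 in CTRL, -0.67), Fdps (10.43 to 10.74 and 10.95 to 11.01, -0.38), Sc5d, Nsdhl and Ebp were lower. In all, 2 of 23 rose and 5 fell, with 4 and 11 without MSC-EVs replicate 3, 1 and 3 without CTRL replicate 1, and 4 and 3 after cyclic loess. Without CTRL replicate 2, i-EVs replicate 3 or IL4-EVs replicate 2, 3 fell.

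No gene on the lists of cytokine responses passed the limma test. Of 31 interferon and MHC class I genes 0 passed in either direction (median -0.02; 2 were lower at an unadjusted p under 0.05, and 1 fell without IL4-EVs replicate 3), and of 24 NF-kappaB and cytokine genes 0 passed (median 0.01; 0 at an unadjusted p under 0.05). After another normalization 1 gene of the second list was higher. Only 3 and 2 members of these lists were bright, so a change in the others was hardly measurable. Of 24 immediate early genes 0 passed (1 was lower at an unadjusted p under 0.05), and 2 fell without MSC-EVs replicate 3. The stress lists had 7 of 24 genes of the integrated stress and unfolded protein response lower (median -0.13; Psat1 -0.35, Herpud1 -0.33, Asns -0.29) and 7 of 21 heat shock and chaperone genes lower (median -0.11). Without CTRL replicate 1 4 genes of the first list fell, and without CTRL replicate 3 4 of the second. After cyclic loess 3 of each list fell. The chaperone genes that fell over all arrays included the chaperonin subunits Cct4 (-0.50), Cct2 (-0.41) and Cct3 (-0.41). The shares of both lists are near that of bright genes, although only 19 of the 24 and 15 of the 21 members were bright.

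The rule fixes 1 direction for all 3 EV types, and the amounts were graded. Over the 490 higher DEGs set apart, the median difference from CTRL was 0.51 log2 units for i-EVs, 0.66 for IL4-EVs and 1.03 for MSC-EVs, and over the 756 lower ones -0.58, -0.71 and -0.88. The i-EVs showed the smallest change in 80.2% of the higher and 72.6% of the lower clusters. Over all clusters with a positive or negative difference these shares were 35.4% and 51.5%. MSC-EVs showed the largest change in 94.9% and 80.8% of the DEGs set apart, against 39.7% and 49.7% of all clusters. The order i-EVs, IL4-EVs, MSC-EVs held in 76.7% of the higher and 56.9% of the lower clusters, against 24.7% and 32.2% of all clusters with a positive or negative difference. All 3 types share the CTRL arrays, and the rule favors genes with large changes in every type. The fold minimum of DEGs was set on the mean of these same differences. These shares are given over all arrays only, MSC-EVs replicate 3 among them. Of the 9 arrays, i-EVs replicate 1 lay nearest to CTRL in 77% of the 756 lower and 31.2% of the 490 higher clusters.

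Differences among the EV types were tested without the CTRL arrays' means (limma F test). Over all clusters 6 passed (0.00916%), none with a gene symbol and 0 of the 1246 DEGs set apart, although 8607 clusters and 667 of those DEGs had an unadjusted p under 0.05. When the test ran on the 13061 bright clusters alone, 295 passed, of which 93 were among the 1127 bright DEGs set apart. Named genes that passed there include Lrp1 (0.73 log2 units for i-EVs, 1.13 for IL4-EVs, 1.52 for MSC-EVs), Akap9 (0.42, 0.72 and 1.13), Gstp1 (-0.41, -0.87 and -1.30) and Sdhd (-0.65, -1.05 and -1.14). The count turned on single arrays, with 0 of all clusters passing without MSC-EVs replicate 3 and 1102 without MSC-EVs replicate 2.

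**Figure D4:**
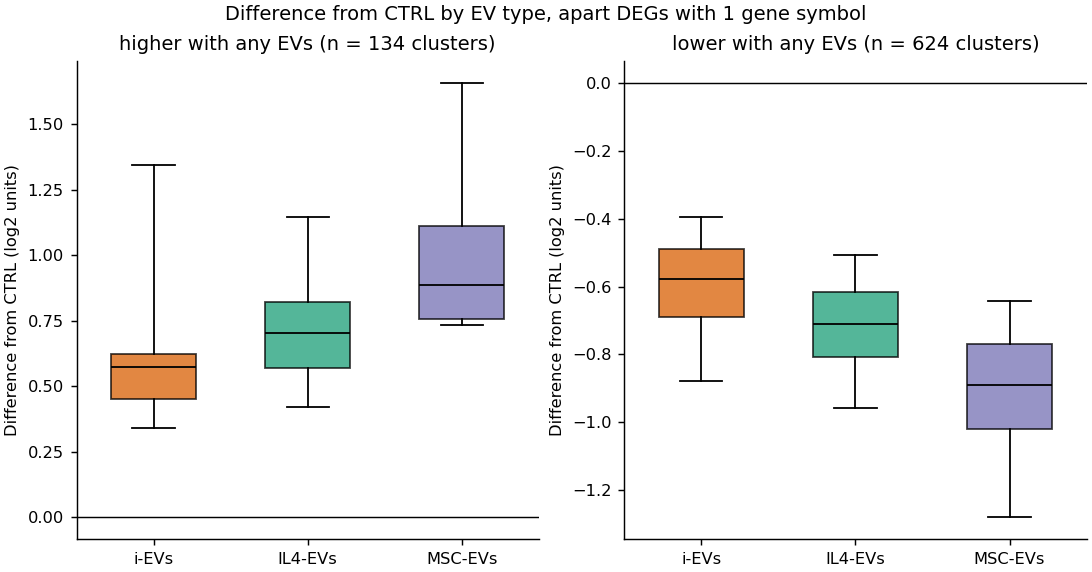
Difference from CTRL (y axis, log2 units) by EV type (x axis) for the DEGs set apart that carry 1 gene symbol, 134 higher and 624 lower clusters, with boxes for quartiles, lines for medians and whiskers for the 5th and 95th percentiles. The medians are 0.57 for i-EVs, 0.70 for IL4-EVs and 0.89 for MSC-EVs on the higher side, and -0.58, -0.71 and -0.89 on the lower.

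The genes named for the most even differences across EV types, relative to their size, ranged from nearly equal to clearly graded ones. Atp10b, a phospholipid flippase, had 8.76, 8.90 and 9.06 log2 units with EVs, against 8.16, 8.24 and 8.33 in CTRL, and its differences were 0.67 for i-EVs, 0.58 for IL4-EVs and 0.72 for MSC-EVs. Qk, the RNA-binding protein quaking that myelin mRNAs need, had 10.58, 10.80 and 11.04 with EVs and 9.95 to 10.13 in CTRL (0.76, SE 0.07), the widest distance between groups of any higher protein-coding gene that was named (0.45), and differences of 0.63 for i-EVs, 0.72 for IL4-EVs and 0.91 for MSC-EVs. Dscam, an adhesion molecule, had 12.70 to 13.22 with EVs and 12.16 to 12.39 in CTRL (0.57, 0.83 and 0.72 by EV type), and the kinase gene Uhmk1 10.79 to 11.16 and 10.32 to 10.47 (0.48, 0.61 and 0.68).

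On the lower side Nufip1, a factor of snoRNP assembly, had 7.03, 7.13 and 7.21 log2 units with EVs, against 7.72, 7.76 and 7.98 in CTRL, with differences of -0.67, -0.70 and -0.68 in the 3 EV types. Nampt, the rate-limiting enzyme of NAD salvage, had 9.44, 9.55 and 9.66 with EVs and 10.05 to 10.26 in CTRL (-0.53, -0.62 and -0.61). Zc2hc1a (-0.57, -0.58 and -0.62) and Actr6 (-0.58, -0.68 and -0.65) completed this group. Evenness chose these genes and is no result.

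A feature the rule did not use, the span of the gene in the RefSeq annotation, differed sharply between the directions. Protein-coding DEGs set apart had a median span of 126 kb when higher (n = 63 clusters) and 8.63 kb when lower (n = 166), against 28.1 kb over 7012 bright protein-coding clusters. Spans over 100 kb made up 61.9% of the higher, 0% of the lower and 14.85% of the bright clusters, and spans under 10 kb 0%, 58.4% and 19.6%. Median levels of higher and lower DEGs were close (10.3 and 10.1 log2 units). Over bright clusters the share above CTRL in all 9 EV arrays climbed from bin to bin, 0.161% for spans under 5 kb, 6.22% for 20 to 50 kb and 32.9% over 200 kb, while the share below was 37.1%, 25.4% and 5.18% in the same bins and peaked at 41.2% for 5 to 10 kb. The median difference was -0.29 under 5 kb and 0.18 over 200 kb. After cyclic loess these medians were -0.20 and 0.26, so the ends kept their signs. Lengths of mature transcripts and measures of RNA quality were not analysed here, and their part in this gradient was not tested.

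**Figure D5:**
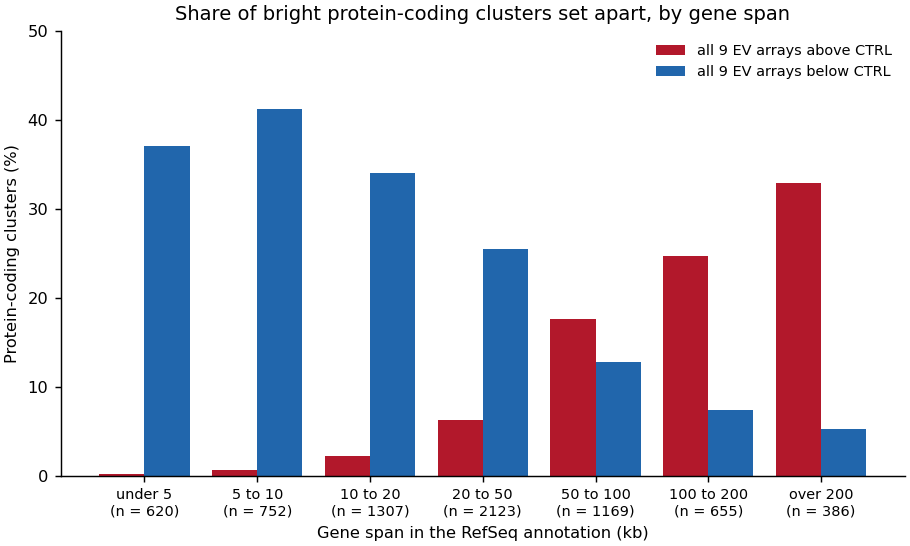
Share of bright protein-coding clusters (y axis, percent) in which all 9 EV arrays lay above or below CTRL, by gene span in kb (x axis, number of clusters under each bin). The share above climbs to 32.9% over 200 kb while the share below drops to 5.18%.

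Gene classes differed in their shares, which are read against 3.02% above and 5.63% below over all clusters. Of 4657 pseudogene clusters 873 lay below CTRL in all 9 EV arrays and 20 above (18.75% and 0.4295%). Pseudogenes resemble the mRNAs they derive from, so their signal is uncertain. Of 952 small nucleolar RNA clusters 52 lay above and 5 below (5.46% and 0.525%). In the list of 66 snoRNAs with a guide number 19 rose and 0 fell (median 0.26; 10 rose without CTRL replicate 1 and 11 without CTRL replicate 2). Snord16a had 11.55, 12.19 and 12.89 log2 units with EVs, against 10.38, 10.85 and 11.07 in CTRL, and at 2.73-fold was farther from CTRL than any protein-coding gene named above (log2 difference 1.45, SE 0.19). Of 70 clusters for 5S ribosomal RNA genes 27 lay above CTRL, but they held only 2 distinct sets of values and count as 2 measurements. Clusters with no gene symbol, 32986 in number, had 881 above and 409 below (2.67% and 1.24%), the share above being no larger than over all clusters, and made up 343 of the 490 higher DEGs set apart.

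MicroRNA clusters had 26 of 605 above CTRL and 9 below (4.30% and 1.49%, the first near the share of all clusters), of which 7 below belong to Mir684 and share signal between copies. A family of GU-rich microRNA genes, Mir297, Mir466, Mir467 and Mir669, many of them in a cluster in an intron of Sfmbt2, stood out after the values had been seen, with 14 of 87 clusters above and 0 below (median 0.32), against 12 and 9 of the other 518 (median 0.04). Mir669e had 16.32, 16.65 and 16.84 log2 units with EVs, against 15.04, 15.67 and 15.71 in CTRL (1.13, SE 0.14, adjusted p = 0.00083), on a cluster of another chromosome than the gene. Mir466j had 9.74 to 10.67 with EVs and 9.41 to 9.66 in CTRL (0.78, SE 0.17, adjusted p = 0.0136). Whether mature or precursor RNA was detected was not tested, and Sfmbt2 itself had a difference of 0.09 that did not pass. Mature sequences of 4 of the 13 genes were matched in RefSeq (GRCm38.p6), shown with the seed (bases 2 to 8) in capitals. Each has its own seed, and G and U make up 73.9%, 68.2% and 90% of the first 3 and 13.6% of the last, which is rich in A and C. The clusters of the genes Mir467h and Mir669n did not pass the test (adjusted p = 0.0761 and 0.0649), while that of Mir466i, which does not resolve an arm, did (0.50, adjusted p = 0.0338).
mmu-miR-466j: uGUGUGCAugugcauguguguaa
mmu-miR-467h: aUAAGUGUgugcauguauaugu
mmu-miR-669n: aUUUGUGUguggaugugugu
mmu-miR-466i-3p: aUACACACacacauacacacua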

How the data were processed

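RNA of 12 OPC samples was hybridised to Clariom D mouse arrays. The authors deposited RMA values (background correction, quantile normalization, summarization per transcript cluster) as linear intensity, made in TAC and, per the labels' processing notes, Affymetrix Expression Console; the version of Expression Console and the build of the annotation are not given in the sources used here. The intensity values were taken to log2. Both deposited tables held the same values, and the table used ends at 65535 clusters, within chromosome 19. Number of arrays limits the precision.

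Groups followed the labels. A linear model with 1 mean per group was fitted in limma 3.58.1 (R 4.3.3) over 12 arrays and 65535 clusters, with the equally weighted mean of the 3 EV groups minus CTRL as contrast, eBayes and Benjamini-Hochberg adjustment. DEGs had adjusted p under 0.05 and changed by a factor of 1.5 or more. Lists used 1 cluster per gene (highest mean). Named genes had 1 symbol, a mean of at least 6 log2 units, a DEG call and separate groups: the 8 largest changes, the 4 smallest p-values and the 4 most even across EV types in each direction. Added were, from every list, at most 3 members that were called and separate, by p, and Cspg4, Gpr17 and Mbp; genes named beyond these were chosen after their values were seen. Members and lists were chosen with earlier results of these data known. Gene span (RefSeq) replaced the planned protein length, for which no table was at hand. Tested on simulated data for any EVs minus CTRL over 65535 clusters, the fit recovered 77%, 96% and 99% of clusters changed 1.5-, 2- and 3-fold. Alternatives were 2 other normalizations, a filter on dim clusters, a replicate block, other models, each EV type left out, and each array left out. Figures used Python 3.11.15 and matplotlib 3.10.9.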

Additional observations from a re-analysis of the deposited data

Results flagged for a closer look

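Dixon's test sets 1 array far from the rest by chance alone in about 1 of 20 groups drawn from 1 population. Here the 9 EV arrays come from 3 EV types, so that rate does not strictly hold. In 6 of 99 named genes 1 of these arrays lay far from the other 8. MSC-EVs replicate 3 was that array in 4 of them, with 10.57 log2 units of Cspg4 and 6.48 of Slc1a3 on the high side and 17.26 of Gpr17 and 5.01 of Mbp on the low side. The array i-EVs replicate 1 was it in the other two, with 8.841 log2 units of Ndufa1 and 14.07 of Rpl27, in both genes the EV array nearest to CTRL.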

How the results depend on the processing

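None of the named genes that passed the test changed direction in any of 24 alternative settings (the filter on dim clusters kept 97 of the 99), Gpr17, which did not pass, changed sign in 6, and 8 lost their call in at least 1 (Cspg4 in 12, Phxr4 in 6, Rras2 in 5, H2ac15 in 3, and Asns, Ldha, Psat1 and Snap25 in 1 each). Nearly all of the 99 were chosen because their groups lay apart, so leaving out arrays or EV types could not change their direction. Calls lost by genes named outside the 99 are not counted here. The counts of clusters depended more on the settings, and the causes were not tested. Lower DEGs numbered 521 after another quantile normalization and 459 after cyclic loess, which set 2994 clusters apart on the higher side. With bright clusters alone, 1227 were apart and higher and 295 differed among EV types. Higher DEGs numbered 421 in an ordinary linear model, which gave 0 clusters that differed among EV types, and 361 in a 2-group model, and array weights gave 2 clusters that differed among EV types. Pooled without i-EVs, 1245 DEGs were higher and 4328 and 6016 clusters were apart above and below CTRL. Pooled without MSC-EVs, 186 DEGs were higher and 560 lower, and 3027 clusters were apart and higher. A distance of at least 0.1 log2 units left 730 clusters above and 1692 below.

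Leaving out 1 array at a time gave 281 (without CTRL replicate 1) to 855 higher and 559 (without CTRL replicate 1) to 1125 lower DEGs, 2079 to 3551 clusters apart above and 3763 to 5114 below, and 0 (without MSC-EVs replicate 3) to 1102 (without MSC-EVs replicate 2) that differed among EV types. Fewer arrays make separation easier by construction.

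Same-numbered samples of different groups correlated between -0.103 and 0.141 in their deviations, with 0.0723 to 0.141 for the 6 pairs of replicate 1 (3 over 0.1), and 6 of 12 arrays correlated best with an array of their own number. Since not every pair was over 0.1 and no source says what a number marks, the numbers were not treated as pairing the samples. With the replicate block there were 754 higher and 948 lower DEGs and 90 clusters that differed among EV types.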
